A study of Homo sapiens with 48 samples.

Results

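H1975 cells that received YFSJ at 5 mg/mL together with gefitinib at 50 µM for 24 h were set against H1975 cells that received gefitinib at 50 µM alone for 24 h. H1975 cells come from a human non-small cell lung tumour and carry a mutated EGFR, gefitinib is an inhibitor of the EGFR kinase, and YFSJ is a preparation that the labels give by this abbreviation only. The comparison uses 6 of the 48 RNA-seq libraries of the series, 3 of the combination and 3 of gefitinib alone, chosen by the names of their columns in the authors' count table and not by any measured value. The series title speaks of gefitinib resistance, and the pair of groups shows what YFSJ at this dose added to gefitinib. A further 15 libraries, 3 per group and all taken at 24 h, were used to place it: YFSJ 2.5 mg/mL with gefitinib 50 µM, YFSJ 5 mg/mL with gefitinib 75 µM, gefitinib 75 µM alone, YFSJ 5 mg/mL alone, and untreated cells. The labels call the 3 libraries of a group biological replicates and name no vehicle control. Nothing says whether these libraries came from separate cultures. The p-values rest on the spread between libraries within groups, estimated jointly over all 48 libraries in 16 groups. Those include groups with a preparation labelled CKI and untreated cells at 0 h. Below, "the combination" means YFSJ 5 mg/mL with gefitinib 50 µM, and levels are CPM, counts scaled to a common library size.

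EGFR sends its signal through the RAS, RAF, MEK and ERK kinases, and active ERK switches on immediate early transcription factors, growth factor ligands and its own brakes, the dual-specificity phosphatases and the Sprouty and SPRED proteins. Gefitinib is aimed at the EGFR kinase at the head of that chain, and the output genes of ERK are a common readout of its signal. How far gefitinib blocked the mutated EGFR of these cells was not measured here. NF-kappaB is a separate route, by which cytokine receptors and stress drive chemokines, adhesion molecules and the inhibitors that end the response. Sterol synthesis is run by SREBP2, a factor released from the endoplasmic reticulum when membrane cholesterol is low, together with NF-Y, which binds CCAAT boxes.

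The 6 libraries held between 16428398 and 19953748 counts, so that 3 counts, the limit that a count of 0 allows, came to 0.15 to 0.183 CPM, and this limit covers counting error only. The lung lineage factor NKX2-1 stood at 43.8 to 66.7 CPM in the combination and at 58.8 to 76.5 CPM with gefitinib alone. Other lung genes were lower. SFTA3 had 6.69 to 9.69 CPM in the combination and 9.9 to 10.9 CPM with gefitinib alone, and NAPSA 2.15 to 2.82 and 2.57 to 3.3 CPM. SFTPB and SLC34A2 had at most 5 and 6 counts in a library. The catalogue number given for the cells in the labels belongs to the breast line MCF-7, but the breast genes PGR and TFF3 had 0 counts in all 6 libraries and ESR1 had at most 6. TFF1, GATA3 and FOXA1 had at most 9, 16 and 48 counts in a library. The luminal breast list summed below also holds the keratins KRT8 and KRT18, which are in the list of epithelial genes too. Blood and stromal markers PTPRC, CD3E, HBB and DCN had at most 1 count, APOB had 0, and ALB, a liver gene, had 1 to 2 counts in the combination and 1 to 4 with gefitinib alone. Over the whole marker lists, the summed level was 476 to 556 CPM in the combination and 536 to 580 CPM with gefitinib alone for lung epithelium (8 of 23 genes above 1 CPM), 2060 to 2570 and 2600 to 2890 CPM for luminal breast (9 of 20), 99.3 to 109 and 102 to 105 CPM for liver (4 of 30), 304 to 346 and 285 to 391 CPM for blood (5 of 20) and 503 to 704 and 598 to 701 CPM for fibroblasts (6 of 16), most of it from the collagen gene COL1A1 at 405 to 575 CPM in the combination and 469 to 568 CPM with gefitinib alone. In bulk RNA, fewer cells of a kind and less RNA per cell cannot be told apart.

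Library 3 of the combination stood apart from libraries 1 and 2 and lay with gefitinib alone, which bears on every result that follows. For each library of the gefitinib 50 µM groups, its deviation from the mean of gefitinib alone was regressed on the YFSJ difference measured in other libraries, those with gefitinib 75 µM, over the 546 genes called there. A slope of 0 places a library with gefitinib alone and a slope of 1 means the full difference seen at 75 µM. The slopes were -0.0423, -0.0966 and 0.139 with gefitinib alone, 0.321, 0.234 and 0.259 with YFSJ 2.5 mg/mL, and 0.619, 0.614 and 0.0279 with YFSJ 5 mg/mL. Library 3 of the combination thus fell inside the range of gefitinib alone and below every library of the lower YFSJ dose. Its mean distance over the 2000 most variable genes was 10.2 log2 units to the libraries of gefitinib 50 µM alone. It was 10.4 to those of gefitinib 75 µM alone and 15.9 to the other combination libraries. For libraries 1 and 2 the distances to gefitinib 50 µM alone were 17.8 and 18.5. Library 3 was no copy of another library, since the chi-square per gene against its nearest library was 3.24, far above sampling noise. That nearest library was of gefitinib 75 µM alone, and those of gefitinib 50 µM alone gave 3.71 to 10.4. Library 3 thus lay about as close to gefitinib 75 µM alone as to gefitinib 50 µM alone. Whether the library labelled as the third of the combination carries its label by mistake was not tested, and the counts of the leading gene lists and the values of their leading members are given with it and without it.

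**Figure D1:**
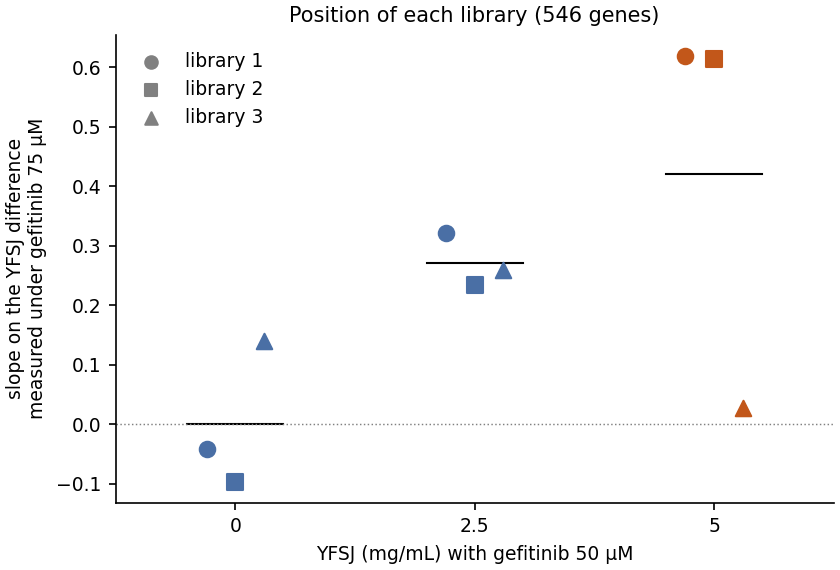
Slope of each of 9 libraries (marker shape for the library number, bar for the group mean) on the YFSJ difference seen with gefitinib 75 µM, by YFSJ dose in mg/mL on the horizontal axis. Libraries 1 and 2 of the 5 mg/mL dose sit at 0.619 and 0.614, and library 3 of that dose sits at 0.0279, among the gefitinib alone libraries.

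Adding YFSJ 5 mg/mL to gefitinib 50 µM raised genes of the ERK output and of the NF-kappaB response and lowered genes of cholesterol synthesis. With all 6 libraries in the fit of 48, 148 of 15789 genes passed an adjusted p of 0.05 (edgeR's quasi-likelihood test with Benjamini-Hochberg adjustment). That is 0.937% of genes, with 84 higher (0.532%) and 64 lower (0.405%), and such genes are said to be called. The median size of a called difference was 0.576 on the log2 scale. Without library 3 of the combination the filter kept 16023 genes, and 682 were called (4.26%), 332 higher (2.07%) and 350 lower (2.18%). Of the 148, 147 were among them. List counts without library 3 are to be read beside these shares. Without library 1 or library 2 of the combination only 8 and 9 genes were called, and without libraries 1, 2 or 3 of gefitinib alone 45, 67 and 88. A fit of these 6 libraries alone called 0 genes with edgeR, where 1384 had an unadjusted p under 0.05 and DESeq2 in the 48-library fit called 242, while the 5 libraries left without library 3 gave 387 calls. In 101 of the 148 genes the 3 libraries of the combination did not overlap with those of gefitinib alone, against 12.1% of all genes, and library 3 lay nearer to the mean of gefitinib alone than to that of libraries 1 and 2 in 124. Among 66 named genes that were called, 6 stayed called whichever of the 6 libraries was left out: DUSP6, PHLDA1, PTX3, IRAK2, TRIP13 and ACSS2.

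**Figure D2:**
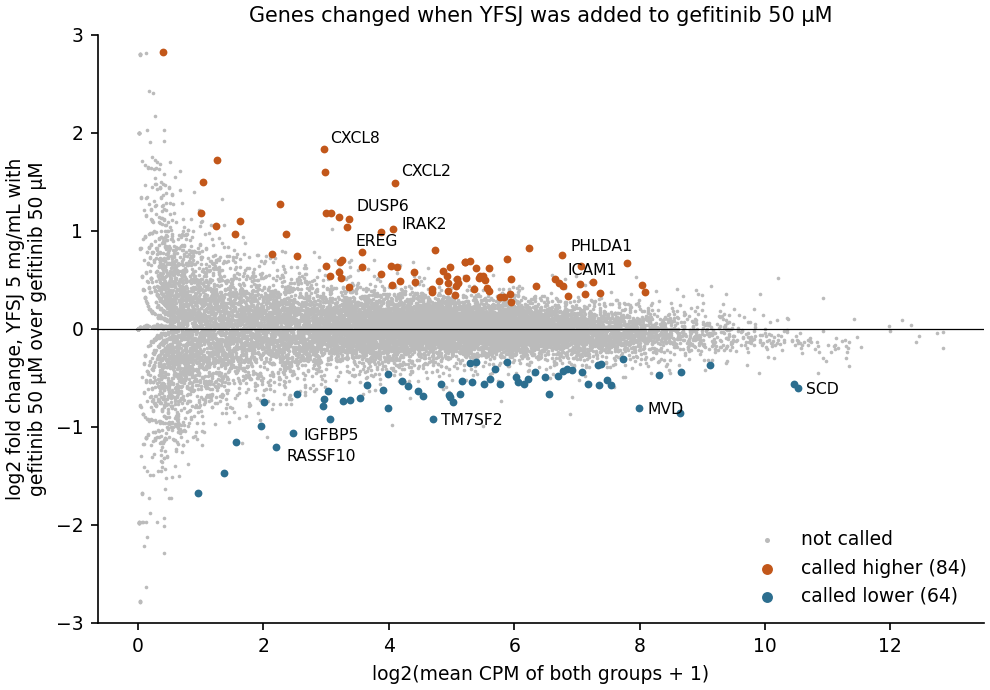
Each point is 1 of the tested genes, by log2 of its mean CPM plus 1 over both groups (horizontal) and its log2 fold change of the combination over gefitinib 50 µM alone (vertical). Coloured points are the 84 higher and 64 lower called genes, and 7 genes, none of them called, lie outside the axis limit of 3.

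Several brakes and ligands of the EGFR to ERK route rose. Of 26 measured members of the ERK output list 11 were called higher, 42.3% against 0.532% of all genes, and 0 were called lower, with a median log2 fold change of 0.51 against -0.003 for all genes tested. Without library 3 the count was 14 and the median 0.55. Without library 1 or 2 of the combination it was 2 and 3, and without libraries 1, 2 and 3 of gefitinib alone it was 8, 9 and 7. DUSP6, the phosphatase that removes the activating phosphates of ERK, had 16.6, 12.3 and 9.12 CPM in libraries 1, 2 and 3 of the combination, against 6.18, 4.95 and 6.35 CPM with gefitinib alone. All 3 combination libraries were above all gefitinib libraries, library 3 by the least, and the log2 fold change was 1.12 ± 0.14 (SE; adjusted p = 2.48e-06), or 1.31 without library 3 (adjusted p = 1.18e-09). PHLDA1, a pleckstrin homology-like protein induced by ERK, had 155, 154 and 97.7 CPM in the combination and 83.5, 73.9 and 83.8 CPM with gefitinib alone. Its groups did not overlap either, though library 3 was much closer to gefitinib alone, and the change was 0.75 ± 0.093 (SE; adjusted p = 2.55e-06), or 0.94 without library 3. Another phosphatase of ERK, the nuclear DUSP5, stood at 55.5, 48.2 and 29.9 CPM in the combination, against 28.5, 26.02 and 28.9 CPM, and here library 3 only narrowly cleared the highest gefitinib library (log2 fold change 0.68 ± 0.12 (SE; adjusted p = 0.00117), or 0.90 without it).

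Both EGFR ligands among the called members followed the same order of libraries, and 2 further ligands, AREG and HBEGF, gave 0.60 and 0.28 and did not pass (adjusted p = 0.539 and 0.425). EREG, which encodes epiregulin, had 14.8, 15.1 and 6.63 CPM in the combination and 5.07, 6.07 and 6.59 CPM with gefitinib alone, a log2 fold change of 1.04 ± 0.20 (SE; adjusted p = 0.00354). Library 3 lay just above the highest gefitinib library, and without it the change was 1.33. TGFA, which encodes transforming growth factor alpha, had 14.8, 15.97 and 8.78 CPM against 9.27, 6.97 and 9.397 CPM, with library 3 inside the gefitinib range and a change of 0.63 ± 0.14 (SE; adjusted p = 0.0171). FOSL1, an AP-1 subunit that ERK stabilises, had 117, 108 and 58.7 CPM in the combination and 54.6, 60.5 and 45.6 CPM with gefitinib alone. Its library 3 again lay within the gefitinib range, and the change was 0.82 ± 0.16 (SE; adjusted p = 0.00372). CCND1, the cyclin D1 that carries the signal into the cell cycle, stood at 199, 183 and 104 CPM against 105, 106 and 102 CPM and rose by 0.64 ± 0.13 (SE; adjusted p = 0.00491). SPRY4 and DUSP4, 2 more feedback inhibitors of the route, rose by 0.97 ± 0.19 (SE; adjusted p = 0.00412) and 0.51 ± 0.12 (SE; adjusted p = 0.0181) on the log2 scale.

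Of the 3 measured SPRED genes, whose products restrain RAS and RAF, 2 were called. SPRED2 stood at 37.5, 36.8 and 34.1 CPM in the combination and at 28.0, 29.7 and 27.4 CPM with gefitinib alone, so that all 3 combination libraries lay together and above. SPRED3 had 1.82, 1.20 and 1.19 CPM against 0.371, 0.905 and 0.533 CPM, a low level at which library 1 was the highest and libraries 2 and 3 lay closer to the highest gefitinib library. Their log2 fold changes were 0.35 (adjusted p = 0.0241) for SPRED2 and 1.19 (adjusted p = 0.0411) for SPRED3, and SPRED1 gave 0.30 (adjusted p = 0.352). The feedback inhibitor SPRY2 gave 0.35 and did not pass (adjusted p = 0.101). MYC, the growth-promoting transcription factor, missed the threshold with 1412, 1385 and 1373 CPM in the combination and 1060, 993 and 866 CPM with gefitinib alone (log2 fold change 0.51 ± 0.14 (SE; adjusted p = 0.0667)), although no library of the groups overlapped. SPRY1 was the only measured member of the list with a negative value, -0.11 (adjusted p = 0.927).

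The receptors themselves did not pass edgeR's test with all libraries in the fit. EGFR mRNA stood at 123, 128 and 91.96 CPM in the combination and at 69, 80.3 and 85.1 CPM with gefitinib alone, with no overlap. Its log2 fold change was 0.55 ± 0.17 (SE; adjusted p = 0.101), and with edgeR it passed once library 3 was left out (0.68, adjusted p = 0.0144). ERBB2 gave -0.22 ± 0.11 (SE; adjusted p = 0.442) and ERBB3, whose sign turned under another scaling, gave -0.030 ± 0.11 (SE; adjusted p = 0.962). MET and AXL, receptors often named in resistance to EGFR inhibitors, gave 0.11 ± 0.13 (SE; adjusted p = 0.841) and 0.10 ± 0.20 (SE; adjusted p = 0.914). Of the 21 measured receptor tyrosine kinases 0 were called by edgeR in either direction, and DESeq2 called EGFR alone. At an unadjusted p under 0.05, 2 were higher and 2 lower, beside 1823 of all 15789 genes in either direction.

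**Figure D3:**
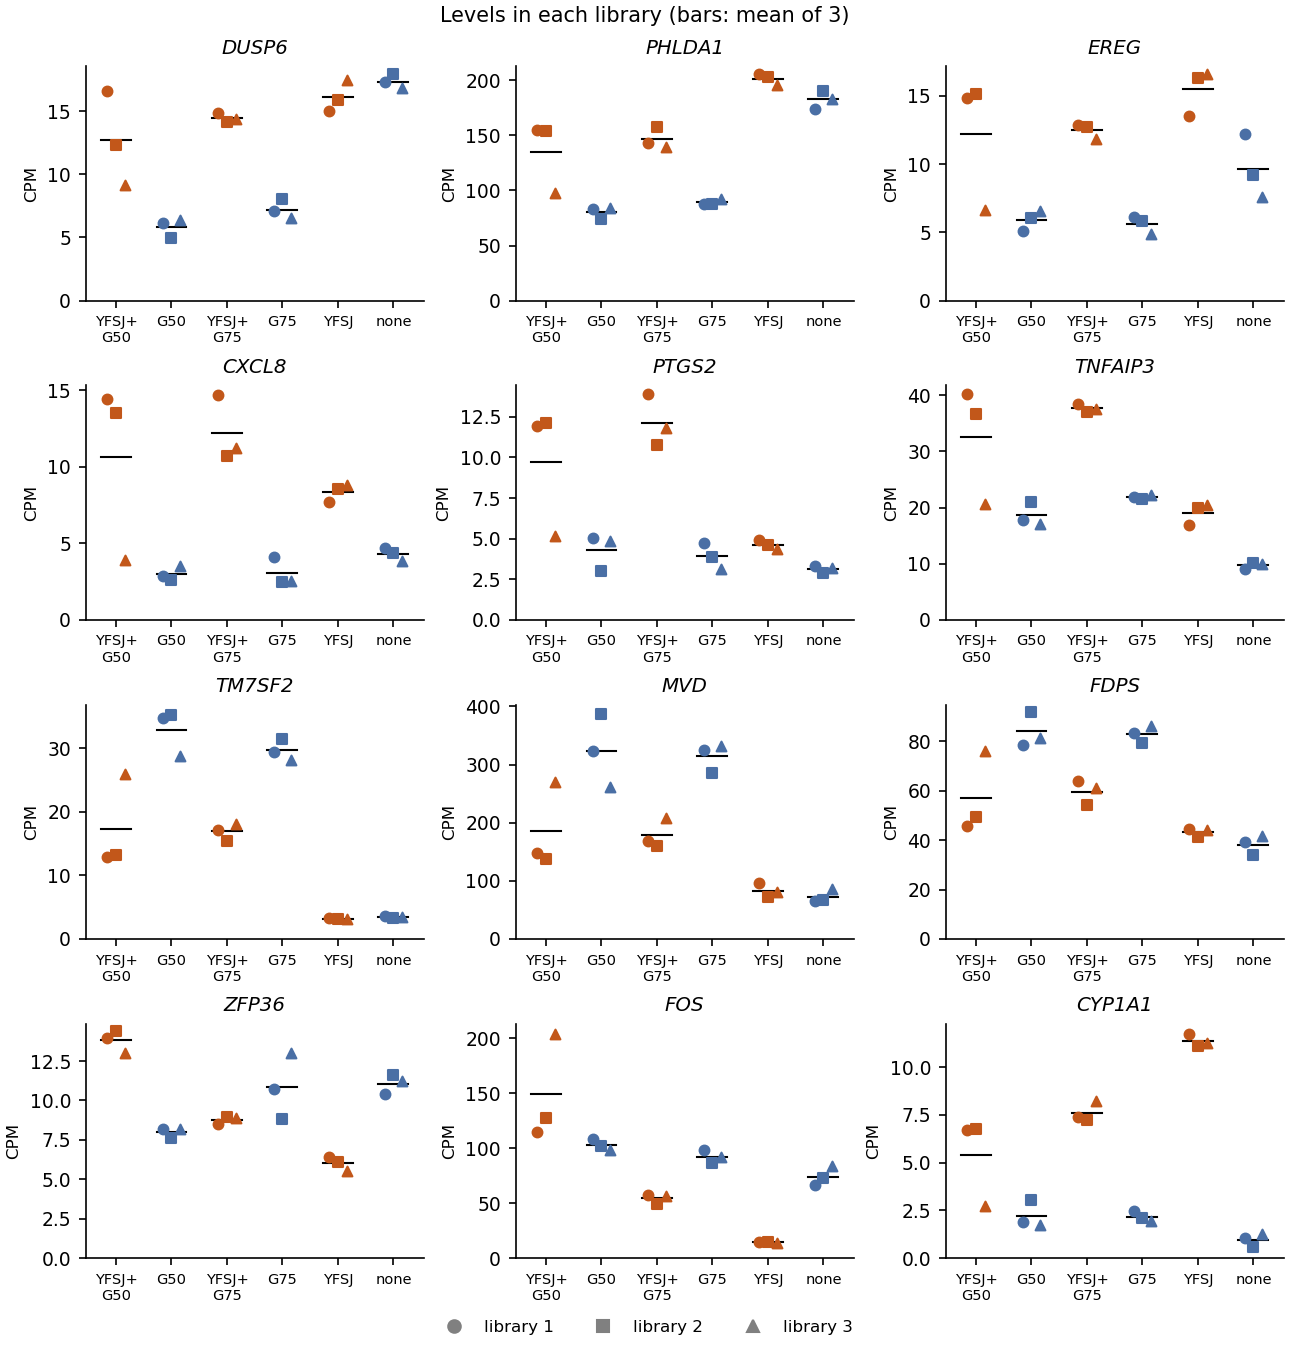
CPM of 12 genes in each library of 6 groups (points, bars for the mean of 3), one panel per gene, with the combination left of its reference in each pair. The triangle is library 3, which in the combination lies, for DUSP6, PHLDA1, EREG, CXCL8, PTGS2, TNFAIP3, TM7SF2, MVD and FDPS, nearer to the gefitinib 50 µM libraries than libraries 1 and 2 do, and for ZFP36 beside libraries 1 and 2.

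Some chemokine and other NF-kappaB target genes also rose. Of 24 measured members of that list 6 were called higher (25%, against 0.532% of all genes) and 0 lower, with a median log2 fold change of 0.36. Without library 3 it was 13 of 25 with a median of 0.48, without library 1 or 2 of the combination 0 in both cases, and without libraries 1, 2 and 3 of gefitinib alone 3, 2 and 5. CXCL8, the neutrophil chemoattractant interleukin-8, had 14.5, 13.5 and 3.91 CPM in the combination, against 2.84, 2.61 and 3.49 CPM with gefitinib alone. Libraries 1 and 2 were several times above gefitinib alone and library 3 was only just above it, and the log2 fold change was 1.83 ± 0.40 (SE; adjusted p = 0.0151), or 2.22 without library 3 (adjusted p = 8.86e-05). CXCL2, a second neutrophil chemokine, had 29.2, 27.4 and 14.5 CPM in the combination and 10.4, 7.08 and 7.85 CPM with gefitinib alone, again with no overlap (1.49 ± 0.31 (SE; adjusted p = 0.00847), or 1.75 without library 3), and it is similar in sequence to CXCL1 and CXCL3, between which reads may be split. PTGS2, the inducible cyclooxygenase that makes prostaglandins, had 11.9, 12.1 and 5.16 CPM against 5.07, 2.98 and 4.84 CPM. Its library 3 exceeded the highest gefitinib library only narrowly, and the change was 1.19 ± 0.22 (SE; adjusted p = 0.00212), or 1.49 without it. TNFAIP3, the A20 protein that shuts NF-kappaB signalling down, had 40.2, 36.7 and 20.6 CPM against 17.8, 21.1 and 17.1 CPM, with library 3 inside the gefitinib range (0.80 ± 0.14 (SE; adjusted p = 0.00134), or 1.04 without it).

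The other 2 called members were ICAM1, an adhesion molecule for leukocytes, and SOD2, the mitochondrial superoxide dismutase. ICAM1 had 144, 137 and 81.9 CPM in the combination and 87.7, 87.2 and 88.8 CPM with gefitinib alone (0.46 ± 0.10 (SE; adjusted p = 0.011)). SOD2 had 331, 331 and 159.6 CPM against 163, 159 and 195 CPM (0.67 ± 0.14 (SE; adjusted p = 0.011)). In both genes libraries 1 and 2 were well above gefitinib alone, while library 3 was below the lowest gefitinib library for ICAM1 and level with it for SOD2. Further called rises lay outside the list. PTX3, a secreted pattern recognition molecule, had 14.2, 14.2 and 5.67 CPM against 4.57, 5.32 and 5.57 CPM, with library 3 just above the gefitinib libraries (1.14 ± 0.17 (SE; adjusted p = 0.000176)). IRAK2, a kinase below the interleukin-1 and Toll-like receptors, had 27.6, 24.3 and 11.3 CPM against 10.1, 10.4 and 10.6 CPM, with the same order (1.02 ± 0.15 (SE; adjusted p = 0.000153)). CD274, which encodes the checkpoint ligand PD-L1, had 12.1, 12.3 and 7.37 CPM against 6.36, 5.75 and 7.31 CPM (0.71 ± 0.18 (SE; adjusted p = 0.038)), and library 3 exceeded the highest gefitinib library by only a trace. SECTM1, a secreted and transmembrane protein, rose by 0.99 ± 0.19 (SE; adjusted p = 0.00403). IL24, a cytokine of the interleukin-10 family, had 15.2, 12.6 and 3.34 CPM against 3.15, 3.51 and 3.58 CPM, with library 3 among the gefitinib libraries (1.60 ± 0.26 (SE; adjusted p = 0.00104)).

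To show what the sequence in front of such genes looks like, the 250 bases before the RefSeq gene start (GRCh38.p14) were searched on both strands for the NF-kappaB consensus, a motif chosen after the called lists were seen. All 6 called members were matched, and 2 of them (33.3%) held it, as did 10 of 19 matched measured members (52.6%), against 8.04% of 11626 matched tested genes and 5.21% of all 35116 windows of this length. These windows are those of the 2 called members with a match, shown 5′ to 3′ on the gene's strand, with the matches in capitals. In CXCL2 both matches overlap in a single run, read on either strand, and in TNFAIP3 they lie next to each other.
CXCL2, chr4:74099196-74099445, minus strand: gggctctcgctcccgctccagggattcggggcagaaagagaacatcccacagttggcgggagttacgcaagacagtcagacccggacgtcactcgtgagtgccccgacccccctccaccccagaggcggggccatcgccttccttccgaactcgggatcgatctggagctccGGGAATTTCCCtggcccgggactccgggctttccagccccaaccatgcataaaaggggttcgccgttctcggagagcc
TNFAIP3, chr6:137867009-137867258, plus strand: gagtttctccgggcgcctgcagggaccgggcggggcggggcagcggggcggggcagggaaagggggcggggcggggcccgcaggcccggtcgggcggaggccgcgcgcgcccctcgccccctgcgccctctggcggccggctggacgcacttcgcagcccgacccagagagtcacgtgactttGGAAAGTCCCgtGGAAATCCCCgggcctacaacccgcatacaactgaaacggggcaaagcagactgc
A match describes letters in this window and says nothing of binding.

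Immediate early genes gave a mixed count. Of 25 measured members 4 were called higher (16%, against 0.532% of all genes) and 0 lower, with a median of 0.35. Without library 3 the count was 5, beside 2.07% of all genes. The 4 were FOSL1, which is also in the ERK list, KLF6, KLF4 and ZFP36. KLF6, a zinc finger factor, had 327, 330.3 and 252 CPM in the combination and 209.5, 230.4 and 228 CPM with gefitinib alone, with no overlap (0.45 ± 0.092 (SE; adjusted p = 0.00707)). KLF4, a related factor of epithelial differentiation, had 45.9, 37.9 and 27.03 CPM against 23.5, 25.8 and 22.1 CPM (0.64 ± 0.15 (SE; adjusted p = 0.0188)). ZFP36, the tristetraprolin protein that destabilises cytokine mRNAs, had 13.99, 14.4 and 13.03 CPM against 8.22, 7.61 and 8.19 CPM. Here library 3 was as high as libraries 1 and 2, and the change of 0.79 ± 0.17 (SE; adjusted p = 0.0108) stood at 0.83 without it. FOS, the founding AP-1 subunit, had 115, 128 and 204 CPM in the combination and 109, 102 and 98.2 CPM with gefitinib alone and did not pass (0.53 ± 0.25 (SE; adjusted p = 0.414)), with library 3 the highest of all 6.

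ZFP36 was not alone in this. In 24 of the 148 called genes, a set formed after their values were seen, library 3 lay nearer to libraries 1 and 2 than to gefitinib alone, 19 of them higher and 5 lower in the combination. DUSP1, a phosphatase of the MAP kinases, had 111, 105 and 132 CPM in the combination, against 82.9, 74.8 and 88.2 CPM, with library 3 the highest (0.50 ± 0.13 (SE; adjusted p = 0.0397), or 0.40 without library 3 (adjusted p = 0.101)). TRIP13, an ATPase of the spindle checkpoint and of recombination, had 31.7, 34.2 and 27.7 CPM against 22.98, 21.7 and 22.1 CPM with no overlap (0.49 ± 0.073 (SE; adjusted p = 0.000153)). E2F2, a transcription factor of the G1 to S transition, stood at 1.998, 1.85 and 1.64 CPM against 0.927, 0.905 and 0.823 CPM (1.05 ± 0.27 (SE; adjusted p = 0.0411)). XRCC2, a protein of homologous recombination, had 5.94, 7.19 and 4.93 CPM against 3.58, 3.19 and 4.02 CPM (0.74 ± 0.18 (SE; adjusted p = 0.0241)). Among the 5 that fell, PFKFB4, a regulator of glycolysis, had 31.8, 33.9 and 34.9 CPM in the combination and 42.4, 44.5 and 41.6 CPM with gefitinib alone (-0.35 ± 0.082 (SE; adjusted p = 0.0183)). LIMCH1, an actin-associated protein, had 6.11, 6.09 and 7.196 CPM against 10.9, 8.73 and 12.6 CPM (-0.73 ± 0.14 (SE; adjusted p = 0.00387)), and CKMT1A, a mitochondrial creatine kinase with a nearly identical copy that makes its count uncertain, gave -0.67 ± 0.17 (SE; adjusted p = 0.0407).

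Many genes of cholesterol synthesis fell. Of 26 measured genes of cholesterol synthesis and uptake 11 were called lower (42.3%, against 0.405% of all genes) and 0 higher, all 26 had a negative log2 fold change, and the median was -0.42. Without library 3 the count was 19 and the median -0.61. Without library 1 or 2 of the combination it was 0 in both cases, and without libraries 1, 2 and 3 of gefitinib alone it was 5, 7 and 7. Along the pathway the called genes ran from ACAT2 and HMGCS1 at the entry, through MVK, MVD and FDPS in the mevalonate part and FDFT1 and SQLE at the first sterol-committed steps, to TM7SF2, MSMO1, NSDHL and EBP in the late conversions. HMGCS1, the synthase that makes HMG-CoA, had 269.5, 323 and 437 CPM in the combination, against 439.9, 439 and 514 CPM with gefitinib alone. Library 3 was only a little under the lowest gefitinib library, and the change was -0.44 ± 0.10 (SE; adjusted p = 0.0241), or -0.65 without it. MVD, the mevalonate diphosphate decarboxylase, had 148, 138 and 271 CPM against 323, 387 and 261 CPM, with library 3 inside the gefitinib range (-0.80 ± 0.17 (SE; adjusted p = 0.011), or -1.18 without it). FDPS, which makes farnesyl diphosphate, had 45.9, 49.2 and 76.1 CPM against 78.6, 91.9 and 81.4 CPM, and library 3 lay just below the gefitinib libraries (-0.56 ± 0.11 (SE; adjusted p = 0.00504), or -0.82 without library 3 (adjusted p = 2.91e-07)).

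Among the later enzymes, TM7SF2, a sterol reductase, showed the largest fall of the called members, with 12.9, 13.2 and 25.9 CPM in the combination and 34.7, 35.2 and 28.7 CPM with gefitinib alone. Libraries 1 and 2 were far below every gefitinib library, library 3 lay just below the lowest of them, and the change was -0.92 ± 0.16 (SE; adjusted p = 0.00151), or -1.33 without library 3 (adjusted p = 4.45e-08). EBP, the sterol isomerase, had 108, 116 and 168 CPM against 201, 189 and 195 CPM (-0.58 ± 0.11 (SE; adjusted p = 0.00387)). FDFT1, which makes squalene, had 214, 231 and 352 CPM against 384, 354 and 369 CPM (-0.47 ± 0.10 (SE; adjusted p = 0.0101)). In both of these library 3 was again the closest to gefitinib alone and still below it. SQLE, the squalene epoxidase, and MSMO1, a sterol demethylase, fell by 0.37 (adjusted p = 0.0104) and 0.53 (adjusted p = 0.00995) on the log2 scale with no overlap. ACAT2, MVK and NSDHL had log2 fold changes of -0.56, -0.49 and -0.42 (adjusted p = 0.0203, 0.038 and 0.0252). INSIG1, a regulator of the pathway, gave -0.37 and did not pass (adjusted p = 0.0589).

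A few genes of fatty acid synthesis went the same way. Of 12 measured genes of that list 3 were called lower (25%, against 0.405% of all genes) and 0 higher, with a median of -0.19, and without library 3 the count was 5 and the median -0.28. ACSS2, which makes acetyl-CoA from acetate, had 98.2, 101 and 149 CPM in the combination and 173, 172 and 169 CPM with gefitinib alone, with no overlap (-0.57 ± 0.090 (SE; adjusted p = 0.000291), or -0.79 without library 3). SCD, the desaturase that makes oleate, had 885, 915 and 1712 CPM against 1718, 1741 and 1881 CPM, and library 3 came within a few CPM of the lowest gefitinib library (-0.60 ± 0.13 (SE; adjusted p = 0.0108), or -0.98 without it). FADS2, a desaturase of polyunsaturated fatty acids, had 126, 112 and 208 CPM against 227, 250.4 and 187 CPM, with library 3 inside the gefitinib range (-0.57 ± 0.13 (SE; adjusted p = 0.0174), or -0.90 without it). FASN, the fatty acid synthase, gave -0.29 (adjusted p = 0.465).

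Because the sterol genes moved together and NF-Y binds CCAAT, the same 250 bases were searched for CCAAT on both strands. It was found in 8 of the 8 called members that the RefSeq table held (of 11) and in 16 of 18 matched measured members (88.9%). It was also in 40.4% of matched tested genes and in 37% of all genes with a window. Counted by window, these 4 shares were 88.9%, 78.3%, 32.3% and 32%. TCACNCCAC, a core of the sterol regulatory element chosen after the called lists were seen, was in 0 of the 8 and in 1 of the 18. Its share was 1.13% of matched tested genes and 1.09% of all genes with a window. The windows of 4 called members are given to show the number and spacing of the CCAAT boxes, in capitals, where ATTGG is the box on the other strand. TM7SF2 held 1 box, at 74 bases before the start, and EBP, FDPS and MVD held 3 each.
TM7SF2, chr11:65111622-65111871, plus strand: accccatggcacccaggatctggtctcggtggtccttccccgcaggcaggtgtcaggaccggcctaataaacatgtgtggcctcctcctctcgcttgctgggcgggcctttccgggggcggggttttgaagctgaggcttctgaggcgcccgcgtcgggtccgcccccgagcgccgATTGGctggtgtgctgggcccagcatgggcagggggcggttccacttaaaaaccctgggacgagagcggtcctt
EBP, chrX:48521558-48521807, plus strand: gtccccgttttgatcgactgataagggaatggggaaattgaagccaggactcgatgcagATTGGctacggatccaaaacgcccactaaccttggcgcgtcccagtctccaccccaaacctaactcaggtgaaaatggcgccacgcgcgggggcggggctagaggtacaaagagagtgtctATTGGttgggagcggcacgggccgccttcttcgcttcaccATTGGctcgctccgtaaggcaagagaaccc
FDPS, chr1:155308616-155308865, plus strand: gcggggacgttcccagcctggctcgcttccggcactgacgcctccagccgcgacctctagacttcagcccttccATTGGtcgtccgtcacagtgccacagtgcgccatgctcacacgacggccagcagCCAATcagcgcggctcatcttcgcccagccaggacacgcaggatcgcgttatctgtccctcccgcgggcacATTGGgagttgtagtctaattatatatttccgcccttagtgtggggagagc
MVD, chr16:88663092-88663341, minus strand: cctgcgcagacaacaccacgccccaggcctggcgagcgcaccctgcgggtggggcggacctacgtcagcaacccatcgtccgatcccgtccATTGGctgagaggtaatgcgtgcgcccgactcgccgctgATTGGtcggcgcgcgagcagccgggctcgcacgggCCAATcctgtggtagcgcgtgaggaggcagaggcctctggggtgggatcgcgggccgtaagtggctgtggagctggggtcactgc
As above, these are letters in a window and no evidence of binding.

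**Figure D4:**
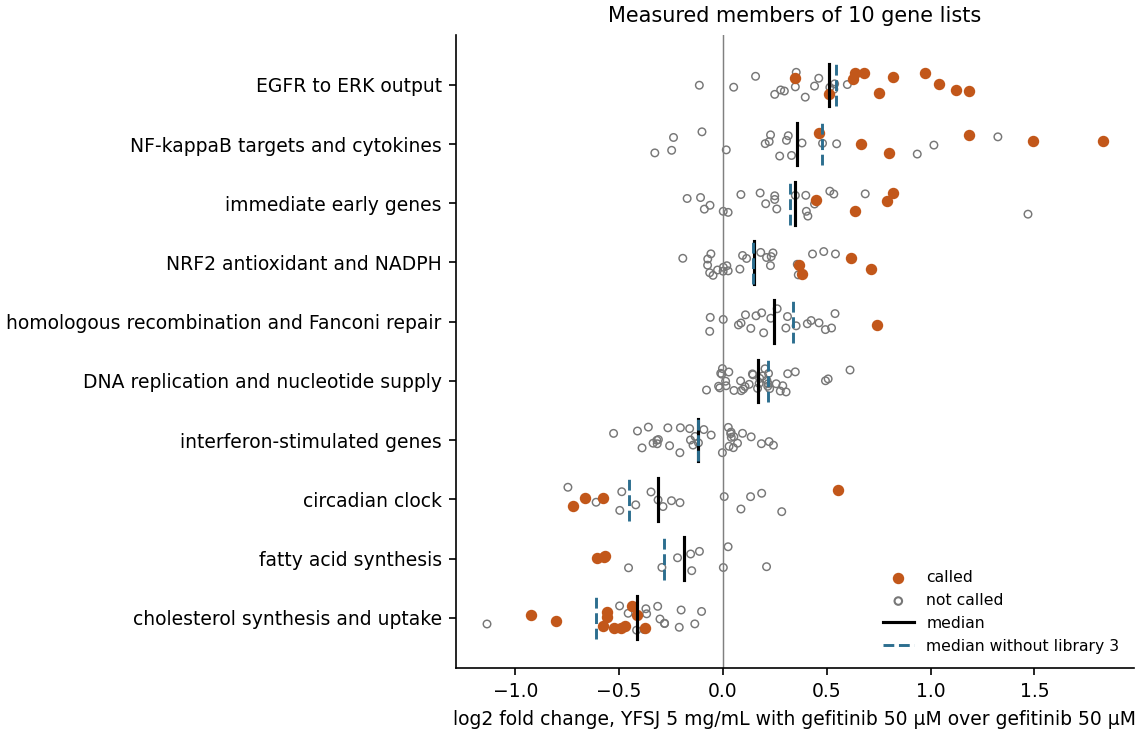
Log2 fold change of the combination over gefitinib 50 µM alone for each measured member of 10 gene lists (rows), with filled points for called genes and marks for the list medians with and without library 3 of the combination. The ERK output list (median 0.51) and the NF-kappaB list (0.36) lie to the right of 0, and all 26 cholesterol genes (-0.42) lie to the left.

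Genes of the antioxidant and xenobiotic responses rose in smaller number. Of 28 measured NRF2 genes 4 were called higher (14.3%, against 0.532% of all genes) and 0 lower, with a median of 0.15. Without library 3, 10 were called higher, beside 2.07% of all genes. SLC7A11, the cystine importer, had 78.1, 92.96 and 45.6 CPM in the combination and 45.1, 38.3 and 48.7 CPM with gefitinib alone, with library 3 inside the gefitinib range (0.71 ± 0.14 (SE; adjusted p = 0.00468)). GCLC, which makes the first step of glutathione synthesis, had 58.5, 58.1 and 43.7 CPM against 39.6, 38.2 and 45.2 CPM (0.38 ± 0.088 (SE; adjusted p = 0.0174)). Library 3 again sat among the gefitinib libraries. ABCC3, an export pump, and SRXN1, the sulfiredoxin, rose by 0.62 ± 0.14 (SE; adjusted p = 0.0128) and 0.37 ± 0.094 (SE; adjusted p = 0.0394). Of 10 measured targets of the aryl hydrocarbon receptor, CYP1A1 alone was called, with 6.701, 6.74 and 2.72 CPM in the combination and 1.92, 3.03 and 1.74 CPM with gefitinib alone (1.28 ± 0.22 (SE; adjusted p = 0.00134)). Without library 3 the count of that list was 5 and its median 0.51, against 0.38 with it.

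A few clock genes changed. Of 19 measured members 3 were called lower (15.8%, against 0.405% of all genes) and 1 higher (5.26%, against 0.532%), with a median of -0.31. Without library 3 the counts were 7 and 2, beside 2.18% and 2.07% of all genes. PER3, a period protein, had 4.82, 6.19 and 10.4 CPM in the combination and 11.9, 11.6 and 11.9 CPM with gefitinib alone, with library 3 just under the gefitinib libraries (-0.72 ± 0.17 (SE; adjusted p = 0.0203)). CRY2, a cryptochrome repressor, had 9.58, 7.24 and 10.9 CPM against 14.2, 13.7 and 13.4 CPM with no overlap (-0.58 ± 0.11 (SE; adjusted p = 0.00372)). TEF, an output factor of the clock, had 22.8, 20.4 and 35.9 CPM against 38.9, 44.3 and 42.04 CPM (-0.66 ± 0.14 (SE; adjusted p = 0.00628)). NPAS2, an activator that can stand in for CLOCK, was the one that rose, with 19.9, 16.8 and 12.3 CPM against 11.1, 11.9 and 10.4 CPM (0.56 ± 0.12 (SE; adjusted p = 0.0143)).

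Several single genes completed the list of large differences. TSC22D3, the glucocorticoid-induced leucine zipper, fell to 57.1, 61.9 and 97.4 CPM in the combination, against 117, 112 and 115 CPM with gefitinib alone, with no overlap (-0.67 ± 0.11 (SE; adjusted p = 0.000528)). In the same list of steroid-response genes CPT1A, the gate of mitochondrial fatty acid oxidation, and ANGPTL4, a lipase inhibitor, rose by 0.54 ± 0.13 (SE; adjusted p = 0.0305) and 1.18 ± 0.30 (SE; adjusted p = 0.0411), and library 3 lay within or below the gefitinib range in both. MT1F, a metallothionein whose reads may be shared with its family, had 18.2, 16.7 and 35.5 CPM against 39.9, 40.4 and 37.7 CPM (-0.75 ± 0.18 (SE; adjusted p = 0.0241)). KRT19, a simple epithelial keratin, had 1021, 893 and 1511 CPM against 1773, 1828 and 1477 CPM (-0.57 ± 0.14 (SE; adjusted p = 0.025)), the only called gene of 19 epithelial ones. ALDOC, a glycolytic aldolase, had 47.1, 45.01 and 67.9 CPM against 75.7, 81.5 and 75.7 CPM (-0.54 ± 0.10 (SE; adjusted p = 0.00245)). The largest falls by the naming rule were RASSF10, a RAS association domain protein, with 1.41, 1.597 and 3.57 CPM against 5.498, 5.48 and 4.17 CPM (-1.20 ± 0.25 (SE; adjusted p = 0.0071)), and IGFBP5, a binding protein of insulin-like growth factors, with 1.65, 1.85 and 5.38 CPM against 5.99, 6.92 and 5.62 CPM (-1.07 ± 0.28 (SE; adjusted p = 0.0411)). In both, library 3 was just under the gefitinib libraries and libraries 1 and 2 far under them. METTL7A, KLHDC8B, OLFML3 and the antisense gene SNAI3-AS1, whose reads cannot be separated from the opposite strand here, fell by 0.79, 0.67, 0.69 and 0.71 on the log2 scale (adjusted p = 0.0241, 0.0144, 0.007 and 0.0156).

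Proliferation and repair genes gave many small positive values and few calls. Of 36 measured genes of DNA replication 0 were called by edgeR, 30 had a positive value and the median was 0.17, and without library 3 the count was 5 (MCM4, MCM10, CDC6, RRM2 and DTL). At an unadjusted p under 0.05, 10 of the 36 were higher, and DESeq2 called MCM10 alone. Over all 15789 genes tested, 1823 had an unadjusted p under 0.05 in either direction, and the counts below are to be read beside that share. Of 33 mitosis genes 0 were called, 29 had a positive value and the median was 0.14, with KIF23 called without library 3, while 4 were higher at an unadjusted p under 0.05 and DESeq2 called 0. Of 22 genes of homologous recombination and Fanconi repair XRCC2 alone was called, the median was 0.25, and 6 were called without library 3, among them BRCA1 at 0.48 and FANCD2 at 0.63. AEN, an exonuclease induced by p53, was the only called one of 22 p53 targets (0.48 ± 0.11 (SE; adjusted p = 0.0188)), and SLC7A11, counted above, the only one of 32 genes of the ATF4 response. Interferon-stimulated genes had 0 of 33 called and a median of -0.12, with 5 called lower without library 3, 9 lower at an unadjusted p under 0.05 and IFIT1 lower by DESeq2. Ribosomal protein genes had 0 of 33 called at a median of -0.13, and nuclear genes of the respiratory chain 0 of 22 at -0.11, with 2 and 1 lower at an unadjusted p under 0.05 and 0 by DESeq2 in both lists. edgeR called 0 of 22 endoplasmic reticulum chaperones, 0 of 39 lysosome genes, 0 of 19 YAP and TEAD targets and 0 of 14 small nucleolar RNA host genes, and DESeq2 also called 0 in these 4 lists. At an unadjusted p under 0.05 the chaperones and the host genes had 0, the lysosome genes 1 higher and 4 lower, and the YAP and TEAD targets 5 higher and 1 lower. edgeR also called 0 of 30 apoptosis regulators (5 higher and 2 lower at an unadjusted p under 0.05), 0 of 22 cytosolic heat shock chaperones (0 and 4) and 0 of 18 replication-dependent histones (1 and 1). In each of these 3 lists DESeq2 called a single gene, CFLAR higher and HSPA1A and HIST3H2A lower. Of 22 mesenchymal genes edgeR called 0, and 3 were higher and 5 lower at an unadjusted p under 0.05. In the drug efflux list ABCC3 and CYP1A1 were called higher of 13, and in the hypoxia list PFKFB4 and ALDOC lower of 32. Over all genes 0.532% were called higher and 0.405% lower.

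The called genes were compared with the effect of gefitinib itself, read in libraries outside the comparison (gefitinib 75 µM alone over untreated cells, 8637 genes called, 54.7%, with 27.6% higher and 27.1% lower). Of 4360 genes higher with gefitinib 75 µM, 47 were lower and 20 higher in the combination than with gefitinib 50 µM alone. Of 4277 genes lower with gefitinib 75 µM, 4 were lower and 40 higher. Among genes that gefitinib 75 µM had raised over 2-fold, 30 of 1556 were lower and 12 higher, and among those it had lowered over 2-fold, 0 of 919 were lower and 17 higher. Of 7152 genes not called for gefitinib 75 µM, 13 were lower and 24 higher. Over all genes tested 0.405% were lower and 0.532% higher. More called differences thus ran against the effect of gefitinib 75 µM than with it. The median log2 fold change of the over 2-fold classes was small, at -0.068 and 0.087. Without library 3 the counts were 214 lower and 93 higher among all raised genes and 45 lower and 136 higher among all lowered genes. They were 91 lower and 103 higher among genes not called for gefitinib 75 µM. Among the genes raised over 2-fold they were 106 lower and 42 higher, and among those lowered over 2-fold 11 lower and 60 higher. Over all genes 2.18% were then lower and 2.07% higher.

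DUSP6 and the sterol genes show this in their levels. DUSP6 stood at 16.6, 12.3 and 9.12 CPM in the combination, against 6.18, 4.95 and 6.35 CPM with gefitinib alone, and at 17.3, 17.9 and 16.8 CPM in untreated cells, so that all 3 libraries of the combination lay between gefitinib alone and untreated cells. TM7SF2, at 12.9, 13.2 and 25.9 CPM in the combination and 34.7, 35.2 and 28.7 CPM with gefitinib alone, had 3.68, 3.35 and 3.47 CPM in untreated cells, and the combination again lay in between. CXCL8 was different: libraries 1 and 2 of the combination were above the 4.71, 4.38 and 3.85 CPM of untreated cells as well as above gefitinib alone.

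YFSJ without gefitinib raised NF-kappaB genes too, but no cholesterol gene was called lower there. Over untreated cells, YFSJ 5 mg/mL called 1023 genes (6.48%), 675 higher (4.28%) and 348 lower (2.2%), and between 406 and 896 when any 1 of the 6 libraries was left out. Of the 148 genes called in the combination 50 were also called there (33.8% of the 148, 4.89% of the 1023), 46 in the same direction and 4 in the opposite one, and these comparisons share no library. Cholesterol genes had 4 of 26 higher with YFSJ alone, DHCR7 and SREBF2 among them, and 0 lower, at a median of 0.093. The ERK output list had 5 higher and 3 lower at a median of 0.11, and NF-kappaB genes had 13 of 24 higher and 0 lower at a median of 0.66. The direct test, the difference between the effect of YFSJ on gefitinib and its effect on untreated cells, called 71 genes (0.45%), 22 higher (0.139%) and 49 lower (0.31%), and 186 (1.16%) without library 3 of the combination. Without any other single library the count lay between 40 and 109. Of the ERK output list 6 of 26 were higher in this test (DUSP5, DUSP6, PHLDA1, FOS, MYC and IER2), and of the cholesterol list 6 of 26 were lower, among them FDPS, SQLE, LSS and INSIG1. Of the NF-kappaB list 3 of 24 were lower (NFKBIE, BIRC3 and ICAM1), and of the immediate early list 7 of 25 were higher. With YFSJ alone over untreated cells, 10 of these 25 were lower and 2 higher, at a median of -0.48. FOS, MYC and IER2, counted above, were not called in the combination over gefitinib alone.

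DUSP6 had 15.1, 15.9 and 17.4 CPM with YFSJ alone and 17.3, 17.9 and 16.8 CPM in untreated cells, overlapping ranges, and the interaction was 1.23 ± 0.18 (SE; adjusted p = 4.46e-05). ICAM1 showed the reverse, with 104, 94.3 and 93.3 CPM with YFSJ alone and 33.2, 32.1 and 33.3 CPM in untreated cells, so that its rise was smaller on gefitinib (-1.10 ± 0.15 (SE; adjusted p = 8.64e-06)). FDPS had 44.7, 41.4 and 44.1 CPM with YFSJ alone against 39.01, 34.1 and 41.4 CPM in untreated cells, and its interaction was -0.74 ± 0.16 (SE; adjusted p = 0.0124). Among the named genes FOSB, FOS and DUSP1 had the highest interactions. FOS stood at 14.5, 14.8 and 14.1 CPM with YFSJ alone, against 66.2, 72.7 and 83.4 CPM in untreated cells, a change of -2.36 ± 0.28 (SE; adjusted p = 6.42e-07). With gefitinib 50 µM, YFSJ at 5 mg/mL gave no call for FOS, and the interaction was 2.89 ± 0.38 (SE; adjusted p = 2.38e-05), or 2.60 without library 3. FOSB, a partner of JUN like FOS, had 1.04, 0.899 and 0.586 CPM with YFSJ alone against 3.48, 5.48 and 6.02 CPM in untreated cells, with an interaction of 3.24 ± 0.40 (SE; adjusted p = 4.66e-06). DUSP1 had 42.3, 36.8 and 37.5 CPM with YFSJ alone against 121, 107 and 115 CPM in untreated cells, with an interaction of 2.06 ± 0.19 (SE; adjusted p = 3.54e-10).

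The largest negative interactions were led by CYP1A1, the classic target of the aryl hydrocarbon receptor. It had 11.7, 11.1 and 11.3 CPM with YFSJ alone against 1.08, 0.5797 and 1.25 CPM in untreated cells, a change of 3.51 ± 0.24 (SE; adjusted p = 1.01e-14). On gefitinib the rise given above was smaller, and the interaction was -2.24 ± 0.35 (SE; adjusted p = 8.39e-05). SLC37A2, a sugar phosphate transporter, had 54.01, 41.3 and 45.7 CPM with YFSJ alone against 14.5, 15.7 and 15.7 CPM in untreated cells, but 48.3, 45.1 and 37.6 CPM in the combination against 41.5, 51.1 and 36.8 CPM with gefitinib alone (-1.60 ± 0.22 (SE; adjusted p = 1.69e-05)). DHRS3, a reductase of retinal, had 19.2, 14.4 and 14.5 CPM with YFSJ alone against 7.94, 8.95 and 10.3 CPM in untreated cells. In the combination it had 13.6, 13.8 and 17.7 CPM against 23.1, 25.6 and 18.99 CPM with gefitinib alone, so that its changes ran in opposite directions (-1.41 ± 0.22 (SE; adjusted p = 7.66e-05)).

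**Figure D5:**
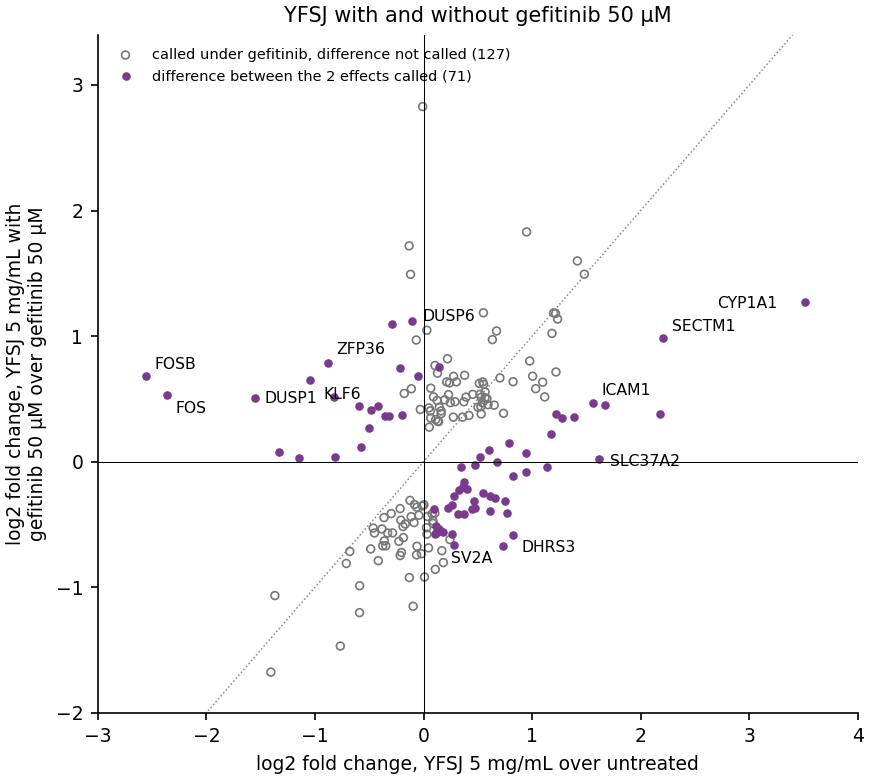
Log2 fold change of YFSJ 5 mg/mL over untreated cells (horizontal) against that of the combination over gefitinib 50 µM alone (vertical), with 1 open point per gene called on gefitinib and filled points for the 71 genes called in the interaction. FOS, FOSB and DUSP1 lie at the left, with falls of -2.36, -2.56 and -1.56 without gefitinib and positive values on it, and CYP1A1 lies at the right.

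The same addition of YFSJ was made to gefitinib 75 µM. Over gefitinib 75 µM alone, 546 genes were called (3.46%), 283 higher (1.79%) and 263 lower (1.67%), and between 287 and 462 when any 1 of the 6 libraries was left out. Of the 148 genes of the 50 µM comparison 92 were called there too (62.2% of the 148, 16.8% of the 546), all 92 in the same direction, and these comparisons share no library. More genes were thus called at 75 µM than at 50 µM with library 3 of the combination in the fit, but without it the order turned, with 682 at 50 µM and 655 at 75 µM. Then 344 genes were common, 50.4% of the 682 and 52.5% of the 655 (4.09%). Of the ERK output list 14 of 26 were higher at 75 µM, of the cholesterol list 13 of 26 lower, and of the NF-kappaB list 11 of 24 higher and 2 lower (TNFAIP2 and CCL5). DUSP6 had 14.9, 14.1 and 14.4 CPM with YFSJ and gefitinib 75 µM, against 7.07, 8.02 and 6.51 CPM with gefitinib 75 µM alone (1.01 ± 0.13 (SE; adjusted p = 2.19e-06)). CXCL8 had 14.7, 10.7 and 11.3 CPM against 4.11, 2.498 and 2.54 CPM (2.01 ± 0.40 (SE; adjusted p = 0.00212)). TM7SF2 had 17.1, 15.5 and 18.1 CPM against 29.4, 31.4 and 28.2 CPM (-0.81 ± 0.16 (SE; adjusted p = 0.00175)). In all 3 genes the libraries of this pair did not overlap.

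The difference between the YFSJ effect at 50 µM and at 75 µM was called in 7 genes (0.0443%), all 7 higher at 50 µM: MX1, MX2, IFI44L, OAS2, CDC20, PLK1 and FOSB. Leaving out library 3 of the combination or library 3 of gefitinib 75 µM left 1 call (0.00624% in the first case), and leaving out any other library left 3 to 7. The first 4 are antiviral genes of the interferon response. MX1, a GTPase against RNA viruses, had 19.9, 20.9 and 23.5 CPM in the combination and 18.4, 19.1 and 17.7 CPM with gefitinib 50 µM alone. At 75 µM it had 19.6, 15.9 and 16.3 CPM with YFSJ and 28.5, 37.99 and 47.9 CPM without, so that the fall was seen at the higher gefitinib dose, where gefitinib alone was high, and the difference between doses was 1.36 ± 0.21 (SE; adjusted p = 0.00142). OAS2, an oligoadenylate synthetase, and IFI44L gave 1.24 ± 0.23 (SE; adjusted p = 0.00982) and 1.55 ± 0.26 (SE; adjusted p = 0.00413), or adjusted p of 0.0704 and 0.0516 without library 3 of the combination. Of the 33 interferon-stimulated genes 19 were lower at 75 µM with YFSJ and 0 at 50 µM, and 4 passed the test of the difference. CDC20, an activator of the anaphase-promoting complex, gave 0.61 ± 0.12 (SE; adjusted p = 0.0194).

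In the fit of all 48 libraries fewer genes were called at the lower YFSJ dose than the 148 at 5 mg/mL, but the order depended on the fit. With only the groups compared, 2.5 mg/mL called 27 genes over gefitinib 50 µM alone and 5 mg/mL called 0. Without library 1 or 2 of the combination, 5 mg/mL called 8 and 9. The next counts are again from the fit of all 48 libraries unless a library is said to be left out. With gefitinib 50 µM in all, YFSJ 2.5 mg/mL called 14 genes over gefitinib alone (0.0887%), 10 higher (0.0633%) and 4 lower (0.0253%). The step between 2.5 and 5 mg/mL called 13 (0.0823%), 12 higher (0.076%) and 1 lower (0.00633%), or 104 (0.649%), 40 higher and 64 lower, without library 3 of the 5 mg/mL dose, so that most calls were then lower. That library is in neither group of the first of these comparisons. It bears there on the shared spread and on the filter, which kept 16023 genes without it. YFSJ 2.5 mg/mL then called 59, 41 higher and 18 lower. Leaving out any 1 of the libraries compared gave 5 to 9 calls for the first of these and, library 3 aside, 6 to 10 for the second. Both comparisons share libraries with the main one. SECTM1 had 9.82, 10.9 and 6.83 CPM at 0, 17.8, 21.6 and 24.96 CPM at 2.5 and 23.04, 20.4 and 10.9 CPM at 5 mg/mL of YFSJ, so that the lower dose was already as high as libraries 1 and 2 of the higher one (1.23 ± 0.19 (SE; adjusted p = 0.00039) for 2.5 mg/mL over gefitinib alone). CYP1A1 had 1.92, 3.03 and 1.74 CPM at 0, 5.27, 5.79 and 5.03 CPM at 2.5 and 6.701, 6.74 and 2.72 CPM at 5 mg/mL (1.26 ± 0.22 (SE; adjusted p = 0.00319) for the first step). DUSP6 had 6.18, 4.95 and 6.35 CPM at 0, 7.95, 9.03 and 8.55 CPM at 2.5 and 16.6, 12.3 and 9.12 CPM at 5 mg/mL, a graded order in which neither step passed (0.55 ± 0.14 (SE; adjusted p = 0.13) and 0.58 ± 0.13 (SE; adjusted p = 0.0555)). TM7SF2 had 34.7, 35.2 and 28.7, then 24.6, 31.2 and 28.7, then 12.9, 13.2 and 25.9 CPM over the same doses, and neither step passed (adjusted p = 0.884 and 0.0743).

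Some genes were lowest at the middle YFSJ dose. Of 25 measured immediate early genes 0 were called higher and 2 lower at 2.5 mg/mL over gefitinib alone (median -0.0019), and 4 higher and 0 lower at 5 over 2.5 mg/mL (median 0.317). FOS had 109, 102 and 98.2 CPM at 0, 23.3, 24.2 and 19.8 CPM at 2.5 and 115, 128 and 204 CPM at 5 mg/mL of YFSJ with gefitinib 50 µM. The middle dose was low in all 3 libraries, with -2.20 ± 0.27 (SE; adjusted p = 2.35e-05) for the first step and 2.73 ± 0.28 (SE; adjusted p = 1.13e-07) for the second. FOSB and DUSP1, which is outside that list, had the same shape, with second steps of 2.88 ± 0.28 (SE; adjusted p = 5.99e-09) and 1.42 ± 0.13 (SE; adjusted p = 1.18e-09). MYC stood at 1060, 993 and 866 CPM at 0, 728, 767 and 759 CPM at 2.5 and 1412, 1385 and 1373 CPM at 5 mg/mL, and its second step was 0.89 ± 0.15 (SE; adjusted p = 0.000653). In these 4 genes library 3 of the combination lay above all libraries of the middle dose. CDC20 had 67.8, 72.2 and 64.8, then 48.9, 48.8 and 51.4, then 70.8, 70.2 and 84.7 CPM, again lowest at the middle dose (-0.46 ± 0.084 (SE; adjusted p = 0.00577) and 0.60 ± 0.084 (SE; adjusted p = 3.21e-05)). TEF, the only gene called lower at 5 than at 2.5 mg/mL with library 3 in the fit, had 38.9, 44.3 and 42.04, then 41.7, 41.3 and 39.98, then 22.8, 20.4 and 35.9 CPM (-0.64 ± 0.14 (SE; adjusted p = 0.0395)).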

How the data were processed

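Total RNA of H1975 cells was read as paired-end libraries without strand information. The authors deposited raw counts per gene for 48 libraries and 27978 genes. Trim Galore 0.4.2, STAR 2.5.3a and edgeR on the build hg19 are named in the submitters' processing notes; which tool counted the reads, with which annotation and strand setting, is not given in the sources used here. All columns mapped to a sample by name.

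The 15789 genes kept by filterByExpr (minimum count 10, minimum total 15) hold 99.968% of counts. edgeR 4.0.16 in R 4.3.3 was fitted to all 16 groups (TMM, robust quasi-likelihood, 32 residual degrees of freedom, biological coefficient of variation 0.102) and tested on simulated data. Comparisons are contrasts with Benjamini-Hochberg adjustment over all genes. CPM use TMM factors, and the SE is the log2 fold change over the root of F.

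Named genes are the 12 largest called rises and falls of at least 5 CPM without overlap, up to 4 members per list and up to 4 genes a direction in other comparisons. Further genes, in the lists or outside them and some under 5 CPM, were named after their values were seen. The groups, members and 35 lists were chosen with earlier results of these data known. Alternatives were RLE factors, library totals, DESeq2 1.42.0, no filter, a replicate block, only the groups compared, an adjusted p of 0.01 and each library left out. The fits with library 3 alone, and with the groups compared without it, were added after the data were seen. Promoter windows end at the gene start. A few genes of the lists are counted but not reported singly here.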

Additional observations from a re-analysis of the deposited data

Results flagged for a closer look

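For 8 genes the effect of YFSJ 5 mg/mL on gefitinib 50 µM differed from its effect on untreated cells by edgeR's test of the interaction. On the log2 scale the difference was 3.24 for FOSB, 2.89 for FOS, 2.06 for DUSP1 and 1.7 for LOC284454, all higher on gefitinib. It was -2.24 for CYP1A1, -1.6 for SLC37A2, -1.41 for DHRS3 and -1.41 for SV2A, all lower on gefitinib. All 8 also passed without library 3 of the combination. For 4 genes the effect of YFSJ differed between gefitinib 50 µM and gefitinib 75 µM, by 1.72 for FOSB, 1.55 for IFI44L, 1.36 for MX1 and 1.24 for OAS2. Of these, MX1 alone passed without library 3 of the combination. The causes were not tested.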

How the results depend on the processing

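The 148 calls of the combination over gefitinib 50 µM became 47 at an adjusted p of 0.01, 242 with DESeq2, 180 with library totals (68.3% of them higher), 150 with RLE factors and 131 without a filter. They became 0 in a fit of only the 6 libraries compared, 0 with library 3 as the only combination library and 387 in a fit of the groups compared without library 3. Leaving out 1 library gave 8 to 682. Over the same settings (0.01, only the groups, only library 3, only the groups without library 3) the ERK output count of 11 was 7, 0, 0 and 11, the cholesterol count of 11 was 4, 0, 0 and 17, and the NF-kappaB count of 6 was 3, 0, 0 and 10. Leave-one-out ranges were 2 to 14, 0 to 19 and 0 to 13.

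At an adjusted p of 0.01 the other counts were 364 for YFSJ 5 mg/mL over untreated cells, 34 for the interaction, 269 for YFSJ over gefitinib 75 µM, 4 for the difference between gefitinib doses, 8 for YFSJ 2.5 mg/mL over gefitinib 50 µM and 6 for 5 over 2.5 mg/mL. Fits of only the groups compared gave 38 for the interaction, 1085 at gefitinib 75 µM, 0 for the dose difference (822 at an unadjusted p under 0.05 by edgeR) and 27 for YFSJ 2.5 mg/mL. DESeq2 gave 188, 41 and 28 for the interaction, YFSJ 2.5 mg/mL and 5 over 2.5 mg/mL, and no filter gave 4 for the dose difference. Leave-one-out ranges were 406 to 896, 40 to 186, 287 to 462, 1 to 7, 5 to 9 and 6 to 104 in the order first given, and 7812 to 8115 for gefitinib 75 µM over untreated cells.

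With library 3 as the only combination library the log2 fold changes of ABCC3 (-0.025), ANGPTL4 (-0.32), CCND1 (-0.00019), CPT1A (-0.075), ICAM1 (-0.10), IL24 (-0.036), MET (-0.053) and SOD2 (-0.11) turned negative. ERBB3 turned positive with library totals (0.012) and without library 2 (0.022) or 3 (0.0028) of gefitinib 50 µM. Of 71 named results 69 stayed on the same side of the threshold without library 3 of the combination, but 12 and 14 without library 1 or 2, and 0 of the 71 changed direction in these 3 settings. Replicate numbers did not pair the samples (correlations of 0.049, -0.31 and -0.25 for numbers 1 to 3), and a replicate block gave 151 calls. The causes were not tested. Fits of fewer libraries also have fewer degrees of freedom, and the fit of only the groups compared gave 0 calls with library 3 and 387 without it. With 3 libraries per group, and 1 of the combination apart from the others, each group mean rests on very few libraries. The spread is shared over the 16 groups. A gene that missed the threshold is not shown to be alike in both groups.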
